A study of Mus musculus with 416 samples.

Results

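This is an account of 795 regions of the mouse genome, each a bin of 50 kb, that were replicated in relatively fewer blastomeres of embryos given siRNA against Rif1 at the 8-cell stage but not at the morula stage. Zygotes of the genotype (C57BL/6J xCBA) x DBA/2J were injected 17 to 18 hours after hCG with siRNA at 20 µM, either siRif1, which targets Rif1, or the control siControl (siCont below). They then developed in culture into 4-cell embryos, 8-cell embryos or morulae. Single cells were taken apart from embryos collected at several times of S phase, and their amplified DNA was sequenced. At the 3 stages the control groups held 49, 60 and 44 cells, and the siRif1 groups 51, 50 and 45. The siRNA does not delete the gene, and how far it lowered Rif1 is not analysed here.

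The replicated share of a bin is the percent of measured cells of a group whose DNA was already replicated there. Each share was centred on the mean of its group over the 46015 bins (of 49264) with at least 10 measured cells in all 6 groups. The groups were not equally far into S phase, with a median cell 48.5% replicated in 8-cell siCont embryos and 43.43% in 8-cell siRif1 embryos. At the 4-cell stage the order was the opposite, with medians of 43.02% and 51.4%. The shift is the centred share in siRif1 minus that in siCont, in percentage points, and a negative shift means later replication relative to the rest of the genome. The members were selected on their shift, which had to be -20 points or less at the 8-cell stage and -5 points or more at the morula stage. Of all used bins, 6.43% (2958) met the first bound and 62.5% met the second. The 795 members that met both made up 1.73% of the used bins. The other 2163 bins with an 8-cell shift of -20 or less, 4.7% of the used bins, had a morula shift below -5 and are called bins delayed at both stages.

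The 8-cell and morula shifts of the members are descriptions, since they chose the members. The 4-cell cells were not used by the choice. The labels name no embryo or litter for a cell, so each group counts as 1 sample and no difference below has a test across embryos. Every member was measured in nearly all cells, with 48 to 49 siCont and 50 to 51 siRif1 cells at the 4-cell stage, 59 to 60 and 49 to 50 at the 8-cell stage and 42 to 44 and 43 to 45 at the morula stage. The bins left out for too few cells cannot be members, and minimums of 20 or 30 cells gave the same 795 bins.

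DNA is replicated in a set order in S phase, with gene-rich, open chromatin usually early and gene-poor chromatin at the nuclear periphery late. RIF1 binds chromatin and brings the phosphatase PP1 to it, which opposes the kinase DDK at the replicative helicase and so holds back the firing of origins in late domains. Loss of RIF1 is known to disturb the timing program in both directions in cultured cells. In early mouse embryos the timing program is known to be less sharply set than in later cells and to become more defined over the first divisions.

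The member bins carry many gene starts, and 1 start is shown for each of the largest 2 runs of neighbouring member bins. It is that of the longest protein-coding gene overlapping the run, and these runs were taken because they hold the most members. Other genes overlap these runs, and their starts are not shown. Each sequence runs 5′ to 3′ on the strand of its gene, from 250 bases before the start to 50 bases after it, with every CG dinucleotide in capitals (RefSeq, GRCm38.p6). Igsf21 (minus strand, chr4:140246762-140247061) has 26 CG in its 300 bases and a GC content of 65.7%. Ankrd28 (minus strand, chr14:31830366-31830665) has 44 CG and a GC content of 76.3%.
Igsf21: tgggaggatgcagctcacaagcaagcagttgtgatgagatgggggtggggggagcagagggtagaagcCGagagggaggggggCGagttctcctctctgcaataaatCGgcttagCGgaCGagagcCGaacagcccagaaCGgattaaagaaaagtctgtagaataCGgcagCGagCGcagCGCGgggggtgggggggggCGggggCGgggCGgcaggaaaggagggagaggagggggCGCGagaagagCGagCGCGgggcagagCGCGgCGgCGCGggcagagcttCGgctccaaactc
Ankrd28: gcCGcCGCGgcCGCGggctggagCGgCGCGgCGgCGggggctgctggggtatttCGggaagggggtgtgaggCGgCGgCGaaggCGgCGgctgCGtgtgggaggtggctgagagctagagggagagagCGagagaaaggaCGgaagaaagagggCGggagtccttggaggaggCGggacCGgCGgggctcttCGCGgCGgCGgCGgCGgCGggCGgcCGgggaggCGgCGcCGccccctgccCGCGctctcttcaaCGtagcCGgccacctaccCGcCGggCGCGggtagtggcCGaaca

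Among promoters of protein-coding genes whose start lay in a member bin, 398 of 676 (58.9%) held 15 or more CG in these 300 bases. The share was 59.5% (1302 of 2187) in bins delayed at both stages and 51.5% (7960 of 15464) in all used bins. The median promoter held 18 CG in the members, 18 in bins delayed at both stages and 15 in all used bins. CG-rich promoters of this kind are typical of housekeeping and developmental genes.

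**Figure D1:**
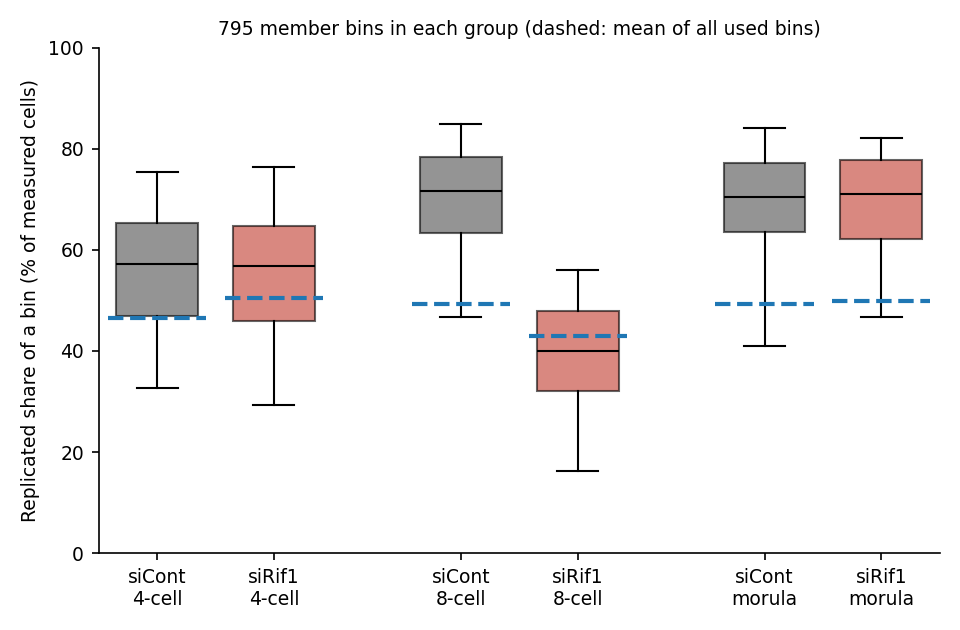
Replicated share (percent of measured cells) of the 795 member bins in each of the 6 groups. Boxes span the quartiles with the median as a line, whiskers the 5th to 95th percentile of bins, and the dashed lines mark the mean of all used bins. The median member lies above the genome mean in every group except siRif1 cells of the 8-cell stage.

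In control embryos the members were early, and at the 8-cell stage of siRif1 embryos they were not. A member was replicated in a mean of 69.7% of siCont cells at the 8-cell stage, where the mean of all used bins was 49.2%. In siRif1 cells of that stage the values were 38.5% for the members and 43.02% for all used bins. The share over members ran from 30 to 91.5% (median 71.7%) in siCont and from 2.04 to 63.3% (median 40%) in siRif1, so the bins of the 2 groups overlap. Morula members had means of 68.1% with siCont and 68.5% with siRif1. At the 4-cell stage the means were 56.1% and 55.1%, with all used bins at 46.5 and 50.5%.

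Set against the genome mean, the members moved apart between treatments and came together again. In siCont the centred share of the members was 9.58 points at the 4-cell stage, 20.5 at the 8-cell stage and 18.7 at the morula stage. In siRif1 it was 4.69, -4.54 and 18.5 points. From the 4-cell to the 8-cell stage the centred share was higher by a mean of 10.9 points in siCont (749 of 795 members higher) and lower by 9.23 points in siRif1 (700 of 795 members lower). From the 8-cell to the morula stage it was higher by 23.03 points in siRif1 (792 of 795 members), while in siCont the mean change was -1.82 points. Part of the 8-cell and morula values follows from the choice of bins.

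The mean 8-cell shift of the members was -25.04 points (SD over bins 4.52), with a lowest value of -48.8. The mean morula shift was -0.188 points (SD over bins 4.52, range -4.78 to 20.98), and 88 members (11.1%, against 36.8% of used bins) had a morula shift of 5 or more. Binomial counting error alone gives the shift of a member an SD of 8.93 points at the 8-cell stage and 9.63 points at the morula stage (medians over members). A single bin can thus lie on either side of a bound through counting error. The 126 members within 1 point of the 8-cell bound had a mean 8-cell shift of -20.5 points, and the 119 bins just outside it a mean of -19.5. The 223 members within 1 point of the morula bound had a mean morula shift of -4.44 points, and the 27 bins just outside it a mean of -5.81.

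**Figure D2:**
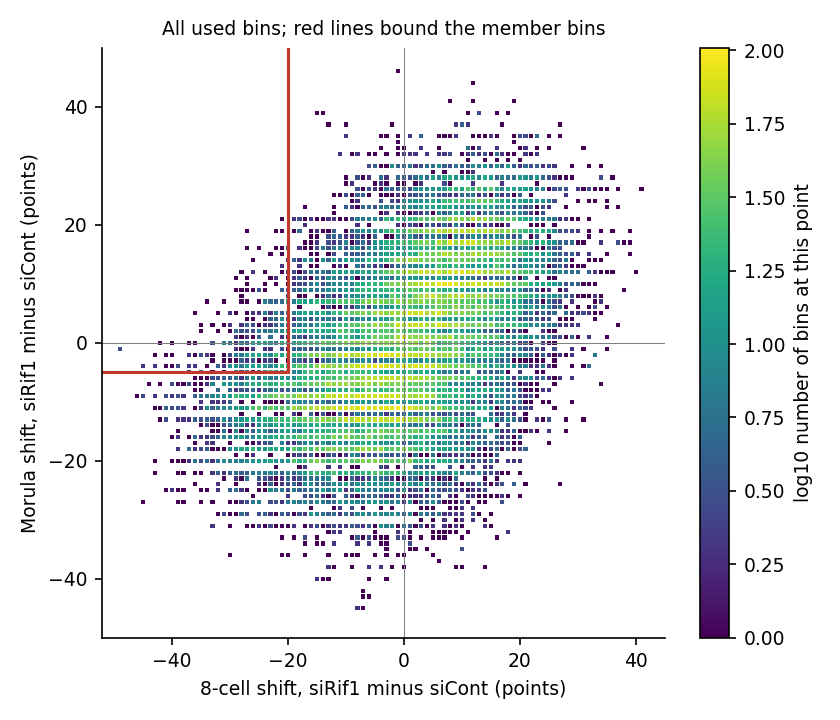
Shift at the 8-cell stage (horizontal) against shift at the morula stage (vertical), both in percentage points and rounded to whole points, for all 46015 used bins. Colour gives the number of bins at each point on a log10 scale, and the red lines bound the 795 members in the upper left. The members lie at the edge of a continuous cloud and form no separate group.

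The morula result depended on the scale. On percentile ranks of bins within a group, the mean morula shift of the members was 10.4 rank points, so they stood earlier in the order of bins in siRif1 morulae. The mean 8-cell shift on ranks was -38.5 rank points. With shares centred on the group median instead of the mean, the morula shift was 3.83 points and the 8-cell shift -22.4. The bins were selected on mean-centred shares of the same cells, which favours a negative 8-cell value on any of these 3 scales.

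At the 4-cell stage, which the choice did not use, the mean shift of the members was negative as well. Their mean 4-cell shift was -4.89 points (SD over bins 9.36, SD over autosomes 5.30), and 544 of 795 members (68.4%) were below 0, against 50.2% of used bins. A 4-cell shift of -5 or less was seen in 49.3% of members (background 29.6%), and one of -20 or less in 36 members (4.53%, background 1.24%). Shifts of 5 or more were seen in 137 members (17.2%, background 28.6%). The mean was below 0 on 16 of 19 autosomes and below that of the used bins of the same chromosome on 16. The SD over autosomes is the spread of the chromosome means and not the error of the mean, which was not tested. The absence of a morula delay is set by the rule.

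Early bins in general had negative 4-cell shifts, and many members were early. In the earliest of 5 equal classes of used bins by siCont 4-cell share, which held 365 members (45.9%), the mean 4-cell shift was -6.20 points in members and -4.31 in all used bins. In the next class it was -4.49 and -0.594 points, and in the middle class -3.76 and 0.270. In the later 2 classes it was -0.152 against 1.69 points, and -4.16 against 2.94 points in the latest. The class and the shift share the siCont 4-cell cells, and these differences were not tested.

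Chromosome 4 carried much of the 4-cell difference. Its 143 members had a mean 4-cell shift of -13.5 points, and 123 of them (86.0%) had a shift of -5 or less. The 130 members beyond 100 Mb of that chromosome had a mean of -14.8 points, and the 863 other used bins there a mean of -6.26. Without chromosome 4 the mean 4-cell shift of the members was -3.01 points, and 41.3% had a shift of -5 or less, against 28.4% of used bins of the other chromosomes. Members on chromosome 7 (34 bins, mean -10.3 points) and chromosome 15 (10 bins, -9.93 points) were also low. Those on chromosome 14 (64 bins, 5.14 points), chromosome 13 (16 bins, 5.92 points) and chromosome 6 (6 bins, 5.20 points) were higher in siRif1, although all used bins of chromosomes 13 and 14 had positive means as well (6.75 and 3.30 points).

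Bins delayed at both stages had a similar 4-cell mean of -5.76 points (SD over autosomes 4.15), with 52.4% at -5 or less and 5.36% at -20 or less. Their mean was lower than that of the members on 11 of 19 autosomes. The mean 4-cell shifts of these sets, -4.89 and -5.76 points, were not tested against each other. Across the members the 4-cell and 8-cell shifts correlated at r = 0.334 (795 bins), against r = 0.163 over all 46015 used bins. These are descriptions, since neighbouring bins share the states of the same cells.

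Where siCont and siRif1 cells of the 8-cell stage were compared one cell at a time, the groups overlapped. These same cells chose the bins, so their 8-cell and morula values restate the rule cell by cell and support nothing further. For each cell the percent of all used bins replicated was subtracted from the percent of member bins replicated. At the 8-cell stage the difference in siCont ran from -5.65 to 46.3 points with a median of 16.2, and 3 of 60 cells were below 0 (5%, interval 1.04 to 13.9%). In siRif1 it ran from -34.1 to 42.6 points with a median of -9.62, and 31 of 50 cells were below 0 (62%, interval 47.2 to 75.3%). The intervals cover the counting of cells and not the choice of bins.

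The values by point of S phase, from the same 8-cell cells, describe where in S phase the selected difference lay. In cells with 20 to 40% of bins replicated the median difference was 16.8 points in 17 siCont cells and -10.2 in 17 siRif1 cells. In cells between 40 and 60% it was 19.9 points (24 cells) and -9.88 points (21 cells). In cells between 60 and 80% it was 17.3 points (13 cells) and -11.2 points (9 cells). The siRif1 group of the 8-cell stage held no cell above 66.5% replicated, while 12 siCont cells lay above its highest cell. With those 12 cells left out the mean 8-cell shift of the members was -26.4 points, and with 43 cells of each treatment matched within 5 points it was -27.3 points.

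**Figure D3:**
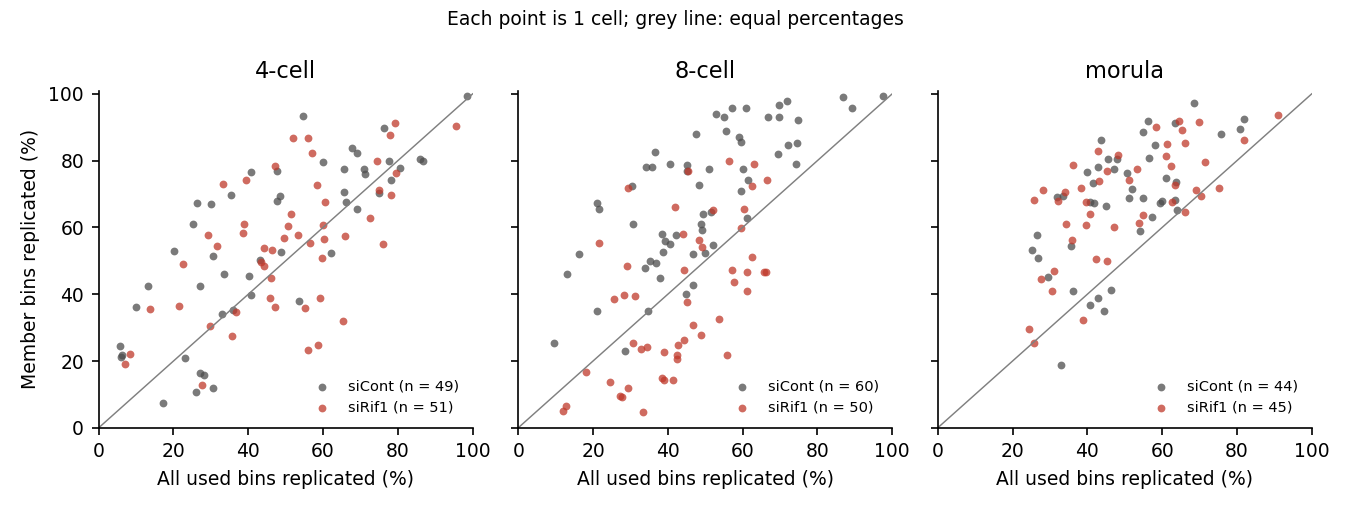
Percent of member bins replicated against percent of all used bins replicated, 1 point per cell, for the 4-cell, 8-cell and morula stages (left to right). The grey line marks equal percentages. At the 8-cell stage 57 of 60 siCont cells lie on or above the line and 31 of 50 siRif1 cells below it, and the 8-cell and morula cells chose the bins.

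The morula values were also set by the rule. In the morula 44 siCont cells had a median difference of 20.7 points and 45 siRif1 cells one of 20.2, and 5 cells of each group were below 0. In 4-cell embryos it was 6.45 points in siCont (range -18.5 to 41.1) and 5.47 points in siRif1 (range -34.0 to 39.9). The 4-cell cells did not choose the bins, and their order differed over S phase. In cells between 20 and 40% replicated 15 siCont cells had a median of 12.4 points and 12 siRif1 cells one of 21.03 points. Between 40 and 60% it was 19.6 points (11 cells) and 4.25 points (23 cells), and between 60 and 80% it was 4.82 points (13 cells) and -3.80 points (12 cells). The siRif1 median was thus the lower one in cells past 40% replicated and the higher one in cells between 20 and 40%.

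The members lay in 200 runs when neighbouring member bins were joined across at most 1 other used bin. The median run held 2.5 member bins, 70 runs held 1, and 56 runs of 5 or more bins held 522 members (65.7%). The largest run held 28 member bins over 1.5 Mb. Neighbouring bins share states, so a run is closer to 1 measurement than its bins are. By run, the 4-cell shift had a median of -4.50 points (lowest -25.3, highest 26.1). Of the 200 runs, 93 (46.5%) were at -5 or less and 31 (15.5%) at 5 or more. Of all used bins, counted by bin, 29.6% and 28.6% were. In 188 runs the centred siCont share was higher at the 8-cell than at the 4-cell stage, and in 177 the centred siRif1 share was lower. Over all used bins, counted by bin, the shares were 53.7% and 48.6%.

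Most members lay in wider delayed regions. When all bins with an 8-cell shift of -20 or less were joined in the same way, 335 regions resulted, of which 66 held members only, 96 held members and bins delayed at both stages, and 173 held no member. Of the members, 587 (73.8%) lay in the mixed regions, whose median length was 12.5 delayed bins, and 208 (26.2%) lay in regions of members only, with a median of 2. A bin delayed at both stages lay inside or within 4 used bins of 141 runs (70.5%). Of the first used bins outside the runs, 41.1% were delayed at both stages. Beside the runs the 8-cell shift returned slowly towards 0, at -21.4 points in the first used bin outside, -18.8 in the fifth and -12.7 in the twentieth. These means include other bins selected at -20 or less. In the fifth bin 13.8% were members of other runs and 29.3% were delayed at both stages, and in the twentieth 8.06% and 20.9%. The morula shift was -3.24 points in the first bin outside, -4.81 in the fifth and -6.11 in the twentieth. The rule, which keeps members at -5 or more, sets part of this difference.

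**Figure D4:**
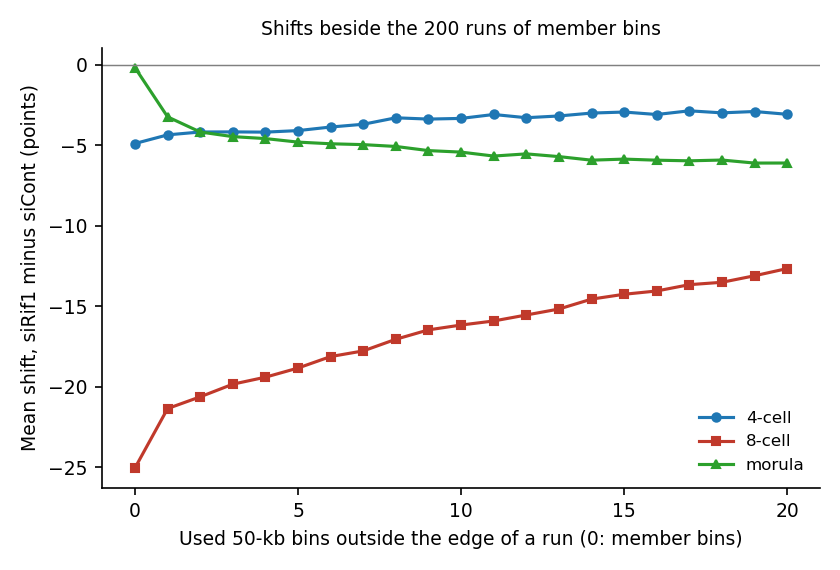
Mean shift (percentage points) at the 4-cell, 8-cell and morula stages against the number of used 50-kb bins outside the edges of the 200 runs, with the member bins at 0. The 8-cell curve stays below -12 out to 20 bins, and the morula values at 0 bins were held at -5 or more by the rule. Bins outside a run include members of other runs and bins delayed at both stages.

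The 14 largest runs held 229 members (28.8%). For each of them the 8-cell and morula cells chose the bins, so those counts describe the choice. Their intervals cover counting only and are no support for a difference. A cell is called mostly replicated in a run where over 50% of its measured member bins were replicated, and positions are those of GRCm38. The run with the most members, 28 bins of chromosome 4 from 140200001 to 141700000, overlaps Igsf21, a gene of the immunoglobulin superfamily, Arhgef10l, and Spen, which encodes a transcriptional repressor needed for X inactivation. It was mostly replicated in 32 of 60 siCont cells at the 8-cell stage (53.3%, interval 39.997 to 66.3%), and in 12 of 50 siRif1 cells (24%, interval 13.1 to 38.2%). At the morula stage it was so in 26 of 44 and 29 of 45 cells. Of 4-cell cells, 21 of 49 with siCont (42.9%, interval 28.8 to 57.8%) and 14 of 51 with siRif1 (27.5%, interval 15.9 to 41.7%) had mostly replicated it, and the intervals overlap. Its shifts were -17.2, -26.3 and 1.60 points at the 4-cell, 8-cell and morula stages.

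The run of 26 bins on chromosome 14 from 31100001 to 32450000 had a positive 4-cell shift, within counting error. It overlaps Ankrd28, a subunit gene of protein phosphatase 6, Pbrm1, which encodes a subunit of the PBAF chromatin remodeller, and Parg, which encodes the enzyme that removes poly(ADP-ribose). It was mostly replicated in 51 of 60 control and 27 of 50 siRif1 cells at the 8-cell stage (85% and 54%). In 4-cell embryos it was so in 35 of 49 siCont (71.4%, interval 56.7 to 83.4%), and 43 of 51 siRif1 cells had replicated it (84.3%, interval 71.4 to 92.98%), and the intervals overlap. The 4-cell shift was 5.84 points (counting SD 8.35) and 0.691 points with matched cells. Of the 14 largest runs it had the highest mean siCont share at the 4-cell stage (72.3%).

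**Figure D5:**
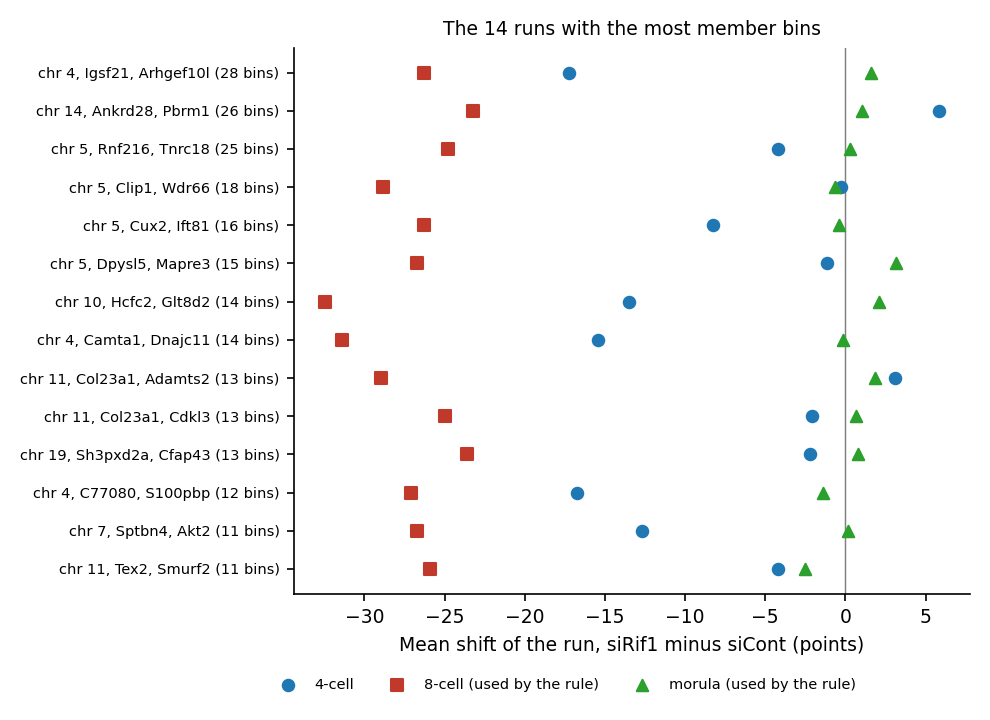
Mean shift (percentage points) of the 14 runs with the most member bins at the 4-cell (circles), 8-cell (squares) and morula (triangles) stages, each labelled by chromosome and its longest overlapping genes. The 8-cell and morula values were used to choose the members, and the 4-cell values range from -17.2 to 5.84 points.

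Chromosome 5 held 4 of the 14 runs. The run of 25 bins from 142500001 to 143750000 overlaps Rnf216, a ubiquitin ligase gene, Tnrc18 and Cyth3, an ARF exchange factor gene, and was mostly replicated in 43 of 60 control and 20 of 50 siRif1 cells at the 8-cell stage. Its 4-cell shift was -4.19 points. The run of 18 bins from 123100001 to 124000000, with Clip1, a microtubule plus-end protein gene, Wdr66 and the kinetochore gene Kntc1, was replicated in 50 of 60 and 23 of 50 cells and had a 4-cell shift of -0.278 points. The run of 16 bins from 121950001 to 122750000, with the homeobox gene Cux2, the ciliary transport gene Ift81 and the kinase gene Camkk2, was replicated in 47 of 60 and 23 of 50 cells and had a 4-cell shift of -8.28 points. The run of 15 bins from 30700001 to 31450000, with Dpysl5, Mapre3 and Ift172, was replicated in 48 of 60 and 26 of 50 cells and had a 4-cell shift of -1.16 points. All 4 were replicated in 70.5 to 80% of cells of both treatments at the morula stage.

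Another 2 runs of chromosome 4 resembled the first in being low at the 4-cell stage. The run of 14 bins from 151300001 to 152100000 overlaps Camta1, a long calmodulin-binding transcription factor gene, Dnajc11 and Plekhg5, and was mostly replicated in 39 of 60 control and 14 of 50 siRif1 cells at the 8-cell stage. In 4-cell embryos it was so in 26 of 49 and 20 of 51 cells (shift -15.4 points). The run of 12 bins from 128900001 to 129500000, with C77080, S100pbp and Azin2, was replicated in 47 of 60 and 21 of 50 cells at the 8-cell stage. Its 4-cell shift was -16.7 points (33 of 49 and 29 of 51 cells). These runs lie in the distal part of chromosome 4, where other used bins had a negative mean as well.

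On chromosome 10 a run of 14 bins from 81550001 to 82800000, with Hcfc2, Glt8d2 and the predicted gene LOC102635990, had the lowest mean 8-cell shift of the 14 runs, -32.5 points. It was mostly replicated in 37 of 60 siCont cells (61.7%, interval 48.2 to 73.9%) at the 8-cell stage, against 11 of 49 siRif1 cells (22.4%, interval 11.8 to 36.6%). The same 8-cell cells chose its bins, and the run was picked as the lowest, so these intervals support nothing further. The 4-cell shift of the run was -13.5 points, and its morula shift 2.08 points (20 of 44 and 23 of 45 cells).

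Chromosome 11 held 3 of the 14 runs. The run of 13 bins from 50800001 to 51450000 overlaps the collagen gene Col23a1, Adamts2, a procollagen protease gene, and Gm12569, and was mostly replicated in 33 of 60 control and 9 of 49 siRif1 cells at the 8-cell stage, with a 4-cell shift of 3.08 points. The run of 13 bins from 51550001 to 52250000, with Col23a1, Cdkl3 and the vesicle coat gene Sec24a, was replicated in 46 of 60 and 22 of 49 cells, with a 4-cell shift of -2.07 points. These 2 runs lie close together on the chromosome, and both overlap Col23a1. The run of 11 bins from 106350001 to 107000000, with Tex2, the ubiquitin ligase gene Smurf2 and Ern1, which encodes the stress sensor IRE1, was replicated in 48 of 60 and 22 of 49 cells, with a 4-cell shift of -4.22 points.

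The last 2 runs lay on chromosomes 19 and 7. On chromosome 19 the 13 bins from 47200001 to 47850000, with the podosome scaffold gene Sh3pxd2a, Cfap43 and Neurl1a, were mostly replicated in 40 of 60 control and 18 of 49 siRif1 cells at the 8-cell stage (4-cell shift -2.18 points). On chromosome 7 the 11 bins from 27350001 to 27900000, with the spectrin gene Sptbn4, the kinase gene Akt2 and Zfp607a, were so in 42 of 59 and 17 of 50 cells (4-cell shift -12.7 points). Of the 14 runs, 6 had a 4-cell shift of -5 or less, 7 lay between -5 and 5, and 1 was above 5. Counting error gave a run's 4-cell shift an SD of 8.35 points or more, and no run had a 4-cell shift as large as 2 such SDs.

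The lowest 8-cell shift was shared by 3 neighbouring members of chromosome 12 from 3200001 to 3350000, near the start of the measured part of the chromosome. The first of these bins, which ends at 3250000, overlaps Rab10, a gene of membrane traffic. At the 8-cell stage 45 of 60 siCont cells had replicated it (75%, interval 62.1 to 85.3%), but 10 of 50 siRif1 cells (20%, interval 10.03 to 33.7%). At the 4-cell stage the counts were 22 of 49 and 12 of 51, and at the morula stage 17 of 44 and 17 of 45. The member with the highest morula shift, 20.98 points, was a bin of chromosome 4 from 128300001 to 128350000 in Csmd2, replicated in 13 of 44 control and 23 of 45 siRif1 morula cells and in 27 of 60 and 9 of 50 cells of the 8-cell stage. The lowest siRif1 share of any member was found on chromosome 11 in Rbfox3, a neuronal splicing factor gene, which is named here after its values were seen. Its bin from 118500001 to 118550000 at the 8-cell stage was replicated in 22 of 60 cells with siCont and in 1 of 49 with siRif1 (2.04%, interval 0.0517 to 10.9%), and in 22 of 44 and 24 of 45 at the morula stage. The bins of this paragraph were chosen by these cells and picked as extremes, so the 8-cell intervals are no support for a difference.

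The members were unevenly spread over the genome. Chromosome 11 held 160 members (6.72% of its used bins), chromosome 4 held 143 (4.99%), chromosome 5 held 93 (3.30%) and chromosome 14 held 64 (2.93%). Chromosomes 4 and 11 together held 38.1% of the members and 11.4% of the used bins. Chromosomes 3 and 16 held 2 members each. Among the bins delayed at the 8-cell stage, members made up 57.1% on chromosome 14 and 66.7% on chromosome 13 (16 of 24 bins), but 4.59% on chromosome 17, where 208 bins were delayed at both stages. Of the members, 387 (48.7%) lay in the distal 25% of their chromosome, against 42.8% of bins delayed at both stages and 25.8% of used bins.

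The members were rich in genes, though less so than bins delayed at both stages. A member held a mean of 1.03 midpoints of protein-coding genes, a bin delayed at both stages 1.26 and a used bin 0.422. No gene midpoint lay in 304 members (38.2%), in 31.4% of bins delayed at both stages and in 70.3% of used bins. Members held more genes per bin than other used bins of their chromosome on 17 of 19 autosomes, and fewer than bins delayed at both stages on 13 of 19. The negative 4-cell shift was present at each gene density. In bins without a gene midpoint it was -3.45 points in members and 0.758 in bins with an 8-cell shift above -20. In bins with 1 or 2 genes it was -5.38 and -0.435 points, and in bins with 3 or more it was -8.03 and -3.07 points. All used bins, delayed ones included, had means of 0.616, -1.12 and -4.72 points in these 3 classes. The pattern was not particular to the members, since bins delayed at both stages had -4.12, -5.95 and -8.60 points.

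In siCont cells of the 4-cell stage the members were mostly early. Of the 5 classes by siCont share at that stage, the earliest held 45.9% of the members and the latest 53 (6.67%). For bins delayed at both stages the percentages were 49.8 and 3.14%. The siCont 4-cell share of the members ranged from 14.3 to 83.7%. Between the fifth used bin on either side, that share differed by a mean of 10.5 points at the members, 10.5 at bins delayed at both stages and 8.47 at all used bins.

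In all, 818 protein-coding genes (4.22% of 19406 in used bins) had their midpoint in a member and 2721 (14.02%) in a bin delayed at both stages. Genes of the ribosome and of protein synthesis were present in small numbers. Of 80 ribosomal protein genes, 3 were in members (3.75%) and 19 in bins delayed at both stages. Rpl11 was replicated in 49 of 60 control and 24 of 50 siRif1 cells at the 8-cell stage, Rps16 in 44 of 59 and 21 of 50, and Rpsa in 42 of 60 and 19 of 50. Of 78 mitochondrial ribosomal protein genes, 4 were in members. Mrpl54 went from 39 of 60 to 7 of 49 cells (shift -44.5 points) and Mrpl38 from 43 of 60 to 13 of 49 (-39.0 points), and both were low at the 4-cell stage as well (-21.8 and -17.1 points). Mrpl48, with an 8-cell shift of -27.6 points, had a 4-cell shift of 1.45 points.

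Other metabolic genes in members were the proteasome gene Psmd9 (1 of 47 listed), the respiratory complex I genes Ndufa6 and Ndufb7 (2 of 35) and the mitochondrial tRNA synthetase genes Pars2 and Sars2 (2 of 18). Psmd9 was replicated in 48 of 60 control and 24 of 50 siRif1 cells at the 8-cell stage. Ndufa6 and Ndufb7 had 8-cell shifts of -21.2 and -20.2 points, close to the bound. Pars2 and Sars2 had 8-cell shifts of -24.2 and -22.7 points and 4-cell shifts of -10.6 and -18.3 points. Their counts are small, and the shares of these lists in members (2.13 to 11.1%) were not tested against the 4.22% of all genes.

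Of 50 measured replication factor genes, 3 were in members (6%, against 4.22% of all genes) and 5 in bins delayed at both stages (10%, against 14.02%). Cdc6, which loads the replicative helicase, was replicated in 47 of 60 control and 18 of 49 siRif1 cells at the 8-cell stage and in 35 of 44 and 34 of 45 at the morula stage. Pold1, the catalytic subunit of DNA polymerase delta, had shifts of -19.7, -24.5 and -3.65 points at the 4-cell, 8-cell and morula stages. Fen1, the flap endonuclease of Okazaki fragments, was replicated in 50 of 60 and 27 of 49 cells at the 8-cell stage. Of the 14 genes of Rif1, PP1, DDK and their checkpoint partners, 1 was a member, Ppp1cc, which encodes a catalytic subunit of the phosphatase that RIF1 binds. It was replicated in 48 of 60 control and 23 of 50 siRif1 cells at the 8-cell stage and in 34 of 44 and 36 of 45 at the morula stage. Rif1 itself (chromosome 2, 52072815 to 52126769) was no member, with shifts of 11.6, -4.49 and -6.45 points.

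The lists of early development had shares near the 4.22% of all genes or held no member. Of 26 pluripotency genes (3.85%) the only member was Pecam1, an adhesion receptor gene, which was replicated in 49 of 60 control and 21 of 49 siRif1 cells at the 8-cell stage, and in 38 of 44 and 38 of 45 at the morula stage. Of 23 measured genes of compaction, polarity and the Hippo pathway (4.35%) the only member was Llgl2, a cell polarity gene, with 45 of 60 and 17 of 49 cells at the 8-cell stage and a 4-cell shift of -13.2 points. None of 22 trophectoderm and primitive endoderm genes and none of 36 measured chromatin modifier genes was in a member, but lists so short would hold few at 4.22%. Of the chromatin modifier genes, 12 (33.3%, against 14.02% of all genes) were in bins delayed at both stages. The imprinted list held 1 member, Gnas (-20.2 points at the 8-cell stage), and the long neuronal list 1, Rbfox3 (-23.4 points).

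Gene clusters contributed a few bins, and their shares are read against 4.22% of all genes in members and 14.02% in bins delayed at both stages. Of 325 measured Zfp zinc finger genes, 17 (5.23%) in 14 bins were in members. Zfp938 was replicated in 37 of 60 control and 7 of 49 siRif1 cells at the 8-cell stage and in 23 of 44 and 23 of 45 at the morula stage. Zfp2 had shifts of 7.35, -26.7 and 2.70 points at the 4-cell, 8-cell and morula stages and Zfp59 shifts of -7.80, -26.7 and -1.12 points. Of 1019 olfactory receptor genes, 10 (0.981%) in 7 bins were members, among them Olfr1375, Olfr51 and Olfr54, which share a bin that was replicated in 32 of 60 control and 9 of 49 siRif1 cells. The vomeronasal receptor genes Vmn2r83 and Vmn2r82 (2 of 185) were late in siCont at the 4-cell stage (9 and 7 of 49 cells) and had 8-cell shifts of -30.3 and -22.3 points. Of 49 keratin genes, 3 were in members (6.12%), Krt23, Krt39 and Krt40, of which the last pair share a bin, and 22 in bins delayed at both stages (44.9%). No gene of the major histocompatibility complex (35 measured), the Hox clusters (39), the clustered protocadherins (57) or the replication-dependent histones (62) lay in a member, and lists of this size hold few members at the share of all genes. Of the major histocompatibility complex genes, 14 (40%) lay in bins delayed at both stages, while none of the Hox, protocadherin or histone genes did.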

How the data were processed

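The deposited tables hold a replication state of 0, 1 or NA per 50-kb bin and cell, as the authors made it. Per the submitters' processing notes, the build was GRCm38, and the tools named, without roles, were R 4.2.3, bedtools, Picard, SAMtools and Bowtie2 2.5.1. The step from reads to states was not given in the sources used here, and read depth per cell is unknown. All 299 cell columns were used of 416 labelled cells, and 0 columns were left unmatched. A state of 1 was read as replicated because bins that held a protein-coding gene midpoint had the higher mean share of 1 in all 6 groups. Shares, centring and shifts were computed with Python 3.11.15, NumPy 2.4.6, pandas 2.3.3 and SciPy 1.17.1, and the scripts were tested on simulated data. Genes and promoters came from RefSeq tables of GRCm38.p6. No replicate test was possible, since no label ties a cell to an embryo, so no p-value is given. Each interval is the exact 95% Clopper-Pearson interval of a share and covers only the error of counting cells.

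The bins, the gene lists and the naming rule were chosen with earlier results of these data known. Runs were named by size (the 14 with the most member bins, with up to 3 of their longest overlapping protein-coding genes), and up to 3 genes per list by lowest 8-cell shift. The bins with the lowest 8-cell and the highest morula shift were also named, as was Rif1. Other cells, centrings, bounds and joins of bins were tried as alternatives.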

Additional observations from a re-analysis of the deposited data

Results flagged for a closer look

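The run with Ankrd28 on chromosome 14 had a 4-cell shift of 5.84 points, while its 8-cell shift was -23.2 points. It was the only 1 of the 14 named runs to be earlier in siRif1 by 5 points or more at the 4-cell stage. The difference between the stages was not tested, as each group is 1 sample. With cells matched within 5 points the 4-cell shift was 0.691 points, within the counting error of the first value (SD 8.35 points).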

How the results depend on the processing

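No paired analysis was possible because cell numbers in the labels name cells and no test was made. The number of members, 795, was 911 with cells between 20 and 80% replicated, 1065 with matched cells, 898 without siCont 8-cell cells above the siRif1 range and 931 with median centring. It was 3742 on percentile ranks, 1711 and 321 with 8-cell bounds of -15 and -25, and 329 and 1486 with morula bounds of 0 and -10. Of these bins, 542 were also members with matched cells and 510 with median centring. The mean 8-cell shift was -27.3 points with matched cells, -22.4 with median centring and -38.5 on ranks. The mean morula shift was 3.83 with median centring and 10.4 on ranks. The siCont 4-cell share of the members, 9.58 points above the mean, was 20.2 rank points above the middle rank. Genes per member numbered 1.61 when counted in each overlapped bin. On shares the mean 4-cell shift lay between -7.06 and -3.01 points over its alternatives (SD over autosomes 5.30). On ranks it was -9.95 rank points. All of the 28 alternative 4-cell values of named runs lay within the 95% counting interval of the first. That interval is wide (counting SD 8.35 points or more) and the alternatives reuse the same cells, so this shows little. Shifts near 0 could change sign, as in the run with Cdkl3 and Sec24a (-2.07 points, 4.16 with matched cells). The causes were not tested. Depth is limited by 44 to 60 cells per group.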
